A study of Mus musculus with 6 samples.

Results

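The genes described here are 10 negative feedback and output genes of the ERK pathway: the Sprouty genes Spry1, Spry2 and Spry4, the Sprouty-related genes Spred1 and Spred2, the dual-specificity phosphatase genes Dusp4, Dusp5 and Dusp6, and the ETS transcription factor genes Etv4 and Etv5. They were taken by symbol from a table of 45703 genes, in which all 10 were present, and all 10 were among the 14998 genes that passed the filter on low counts. The samples were 6 replicate primary cultures of dorsal root ganglia, which hold the cell bodies of sensory neurons together with satellite glia and Schwann cells. The donors were C57BL/6 mice of wild type genotype, 4 to 6 weeks old (adult), and cells were grown for 7 days in medium with 10% fetal calf serum and with EGF and FGF, each supplied at 10 ng/ml. Each library held poly-A RNA pooled from 2 dishes, and all formed 1 group; no culture without growth factors was analysed here. The labels call the libraries replicates without saying that they came from separate animals, so p-values measure only the spread between these samples, which may be technical.

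Growth factors such as EGF and FGF bind receptor tyrosine kinases, which switch on the small GTPase Ras and, through it, the kinases Raf, MEK and ERK. Active ERK induces genes whose products dampen the same pathway. Sprouty and Spred proteins act upstream, at Ras and Raf, the nuclear phosphatases encoded by Dusp4 and Dusp5 and the cytoplasmic one encoded by Dusp6 remove phosphate from MAP kinases, and Etv4 and Etv5 carry the transcriptional response to FGF. Their transcript levels are therefore often read as a sign of ERK output, although ERK phosphorylation itself was not measured here.

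Promoter sequences are shown because these genes are known as transcriptional targets of the pathway. RefSeq (GRCm38.p6) gave upstream windows for 7 of the 10 genes and 8 windows in all, since Etv5 had more than 1. In each window, the 250 bases before the annotated transcript start were searched on both strands for an ETS core (CCGGAA), the Capicua octamers (TGAATGAA or TGAATGGA), an AP-1 site (TGANTCA), a cAMP response element (TGACGTCA) and the CArG box of serum response factor. Only the window of Dusp5 held a match to any of them, and it held 2 adjacent CArG boxes, whose first bases lay 82 and 72 bases before the start. The windows of Dusp5, of the most variable member Spry1 and of the least variable member Spred2 are printed 5′ to 3′ on the strand of the gene, with CArG boxes in capitals. They lie at chr19:53528895-53529144 (plus strand), chr3:37639697-37639946 (plus strand) and chr11:19924192-19924441 (plus strand).
Dusp5: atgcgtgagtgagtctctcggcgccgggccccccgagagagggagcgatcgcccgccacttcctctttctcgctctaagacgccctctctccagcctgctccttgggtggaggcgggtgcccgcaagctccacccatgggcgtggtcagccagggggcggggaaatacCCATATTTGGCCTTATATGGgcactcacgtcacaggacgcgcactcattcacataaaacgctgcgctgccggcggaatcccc
Spry1: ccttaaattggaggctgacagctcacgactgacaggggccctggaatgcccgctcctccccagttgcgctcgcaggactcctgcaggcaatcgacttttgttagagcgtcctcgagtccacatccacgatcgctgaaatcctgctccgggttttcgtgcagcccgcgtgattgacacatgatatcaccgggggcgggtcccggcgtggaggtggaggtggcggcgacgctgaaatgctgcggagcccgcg
Spred2: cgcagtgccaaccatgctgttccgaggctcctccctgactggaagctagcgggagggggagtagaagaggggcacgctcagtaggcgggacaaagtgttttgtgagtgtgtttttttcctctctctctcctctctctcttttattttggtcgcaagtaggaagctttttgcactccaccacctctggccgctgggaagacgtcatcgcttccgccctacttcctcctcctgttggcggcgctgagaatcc

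A CArG box was found in 1.47% of 32851 windows of the same length over all genes, and in 1 of the 8 windows of the feedback genes. The ETS core was found in 12.0% of all windows, the AP-1 site in 6.75%, the Capicua octamers in 2.07% and the cAMP response element in 1.55%, and each in 0 of the 8. The absence of a match says only that these letters are not in this window. The GC content of the windows was 64.0% for Dusp5, 62.4% for Spry1 and 56.0% for Spred2, against a median of 52.4% over all windows.

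The 6 libraries held between 20070639 and 22968642 counts. The marker lists for the tissue were present: all 7 glial lineage genes and all 8 neuron genes reached a CPM (a gene's count relative to its library's total, in the usual scaling) of at least 1 in every library. Replicates 1 and 5 stood at opposite ends in the fibroblast, mural, macrophage and endothelial lists, and at other places in the neuron and glial lists. The summed CPM of 8 fibroblast genes was 3341 in replicate 1 and 14113 in replicate 5, with the other libraries between 4441 and 7481. The mural list likewise ran from 147 to 1165 CPM, the macrophage list from 13.5 to 118 CPM and the endothelial list from 6.44 to 102 CPM, each lowest in replicate 1 and highest in replicate 5, whereas the glial lineage list was lowest in replicate 5, at 4414 CPM against 5717 to 6497 CPM elsewhere, with replicate 2 the highest and replicate 1 at 6488 CPM. The neuron list had its lowest value, 956 CPM, in replicate 5 and its highest, 2029 CPM, in replicate 3, with replicate 1 at 1648 CPM. In bulk RNA of such a mixed culture, fewer cells of a type and less RNA per cell cannot be told apart.

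All 10 feedback genes were detected at a CPM of at least 1 in all 6 libraries, a level that 30.4% of all genes in the table reached. They ranged from steady genes, such as Spred1 and Spred2, to genes that differed many-fold between cultures, such as Spry1 and Etv4. Between the library where it was highest and the library where it was lowest, Spry1 differed 20.7-fold and Etv4 12.8-fold, and Spred2 1.31-fold. The plot of CPM by gene and replicate shows this range.

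**Figure D1:**
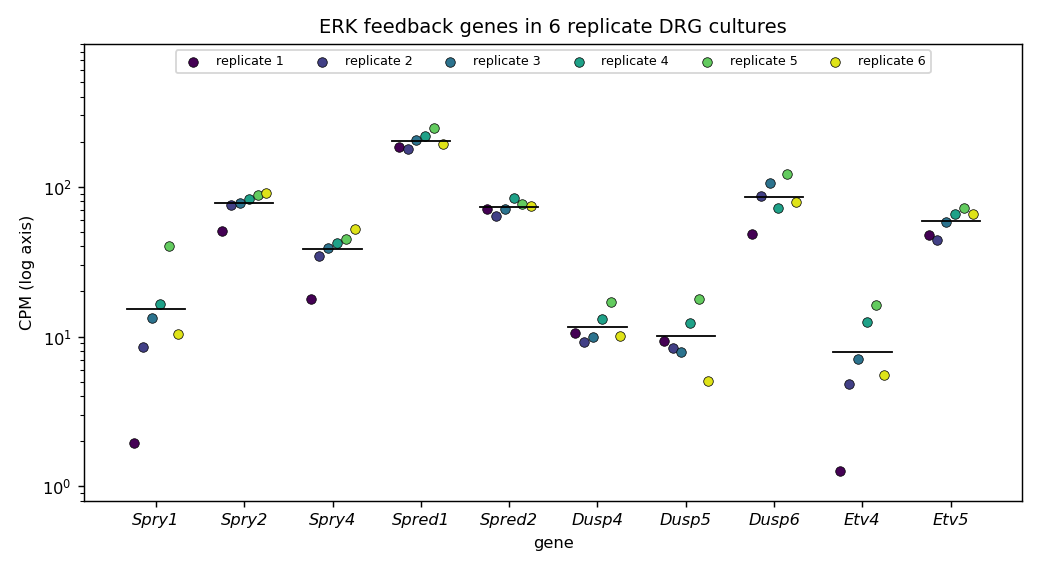
CPM (log axis) of the 10 feedback genes in each of the 6 replicate cultures; points are libraries, coloured by replicate, and bars are means. Spry1 and Etv4 span more than 10-fold between replicate 1 and replicate 5, while the 6 points of Spred2 lie between 64.0 and 83.7 CPM.

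The Sprouty genes encode proteins that block signalling from receptor tyrosine kinases to Ras and Raf. Spry2 (chromosome 14, 105891947 to 105896819, GRCm38.p6) had its lowest value, 50.9 CPM, in replicate 1, a median of 80.7 CPM and its highest value, 91.1 CPM, in replicate 6, with a mean of 77.8 ± 14.4 CPM (SD, n = 6). Replicate 1 stood below the other libraries, which lay within 1.21-fold of each other. Spry4 (chromosome 18, 38586247 to 38601347) ran from 17.9 CPM in replicate 1 through a median of 40.5 CPM to 52.6 CPM in replicate 6, with a mean of 38.5 ± 11.8 CPM (SD, n = 6). Its fold between the extremes was 2.95, and 1.52 without replicate 1.

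Spry1 (chromosome 3, 37639947 to 37644599), a Sprouty gene best known from kidney development and from quiescent muscle stem cells, had 45 counts or 1.96 CPM in replicate 1, a median of 11.9 CPM and 40.6 CPM in replicate 5, with a mean of 15.2 ± 13.3 CPM (SD, n = 6). Replicate 5 was thus well above the others and replicate 1 well below them. Without replicate 1 the span was 4.74-fold, without replicate 5 it was 8.37-fold, and without both it was 1.91-fold, so most of the spread of Spry1 lay in these 2 libraries.

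The Spred genes encode membrane-bound relatives of Sprouty that bind neurofibromin and bring this Ras inhibitor to the membrane. Spred1 (chromosome 2, 117121071 to 117182279), the gene mutated in Legius syndrome in humans, ran from 178 CPM in replicate 2 through a median of 198 CPM to 246 CPM in replicate 5, with a mean of 203.9 ± 25.3 CPM (SD, n = 6). Spred2 (chromosome 11, 19924442 to 20024026) ran from 64.0 CPM in replicate 2 through a median of 72.8 CPM to 83.7 CPM in replicate 4, with a mean of 73.4 ± 6.58 CPM (SD, n = 6). Both genes varied less than 1.4-fold over the 6 cultures. Some reads were counted in fractions in 4 libraries for Spred1 and in 5 for Spred2, as in 3 for Etv5 and 1 for Spry1, so their counts may include reads shared with other places in the genome.

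Dusp6 (chromosome 10, 99263231 to 99267489), which encodes the cytoplasmic phosphatase selective for ERK, ran from 48.2 CPM in replicate 1 through a median of 82.9 CPM to 121 CPM in replicate 5, with a mean of 85.8 ± 25.8 CPM (SD, n = 6). Replicate 3, at 106.5 CPM, was its next highest library, and replicate 4, at 72.7 CPM, its next lowest, so its order of libraries was not that of Spry1. An opposite-strand gene, Gm34921, overlaps Dusp6 and averaged 0.0226 CPM. Dusp4 (chromosome 8, 34807610 to 34819894) and Dusp5 (chromosome 19, 53529145 to 53541809) encode nuclear phosphatases. Dusp4 lay between 9.20 CPM in replicate 2 and 17.0 CPM in replicate 5, with a median of 10.3 CPM and a mean of 11.6 ± 2.95 CPM (SD, n = 6). Dusp5 lay between 5.02 CPM in replicate 6 and 17.7 CPM in replicate 5, with a median of 8.80 CPM and a mean of 10.1 ± 4.41 CPM (SD, n = 6). Both were highest in replicates 5 and 4, and Dusp5 was the only one of the 10 to have its lowest value in replicate 6.

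The ETS factor genes Etv4 and Etv5 are classic FGF targets. Etv5 (chromosome 16, 22381313 to 22439570) ran from 44.1 CPM in replicate 2 through a median of 62.1 CPM to 72.8 CPM in replicate 5, with a mean of 59.2 ± 11.3 CPM (SD, n = 6). Etv4 (chromosome 11, 101769747 to 101785310) had 29 counts or 1.26 CPM in replicate 1, a median of 6.28 CPM and 16.1 CPM in replicate 5, with a mean of 7.88 ± 5.45 CPM (SD, n = 6). Replicate 4, at 12.5 CPM, was next to replicate 5, so Etv4, Dusp4 and Dusp5 shared replicates 5 and 4 as their highest libraries. The match ended there: replicate 1, lowest for Etv4, came next for Dusp4 and Dusp5, at 10.6 and 9.27 CPM. Without replicate 1 the span of Etv4 was 3.35-fold, without replicate 5 it was 9.87-fold, and without both it was 2.58-fold.

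To compare levels between genes, CPM were divided by the combined exon length in kilobases that the table gives. The 45 pairs of the 10 genes were tested as 1 family, on the within-library difference of log2(CPM per kb + 0.1), by an exact permutation of signs (two-sided sign-flip test) with Benjamini-Hochberg adjustment; 35 pairs passed at 0.05. The smallest p that 6 libraries allow is 0.0312, and a pair could pass only if its order was the same in all 6. The share of passing pairs among other genes is not given, so the 35 are not shown to be particular to these genes. Dusp6 and Spred1 shared the top of the order, at 30.7 ± 9.22 and 28.8 ± 3.57 CPM per kb (SD, n = 6), and did not differ beyond their spread (log2 difference 0.04 ± 0.39, exact sign-flip permutation, adjusted p = 0.818). Spry2 followed at 20.6 ± 3.83 CPM per kb, below Spred1 in all 6 libraries, then Etv5 at 12.0 ± 2.29 and Spry4 at 8.21 ± 2.51 CPM per kb. Each of these steps held in 6 of 6 libraries, with log2 differences of 0.49 ± 0.26, 0.77 ± 0.22 and 0.60 ± 0.39 (SD, n = 6; exact sign-flip permutation, adjusted p = 0.0402 each).

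The order is that of the mean log2 values. Lower in it, Spry4, Dusp5, Dusp4 and Spry1 were neighbours whose differences lay within their spread by combined exon length. The steps were 0.59 ± 0.84 from Spry4 to Dusp5, 0.14 ± 0.37 from Dusp5 to Dusp4 and 0.10 ± 1.19 from Dusp4 to Spry1 (log2, SD, n = 6; exact sign-flip permutation, adjusted p = 0.211, 0.412 and 0.938). The levels were 5.56 ± 2.43 CPM per kb for Dusp5, 4.79 ± 1.21 for Dusp4, 6.10 ± 5.35 for Spry1 and 3.22 ± 2.23 for Etv4 (SD, n = 6). Spry1 was above Etv4 in all 6 libraries, by 0.78 ± 0.32 (exact sign-flip permutation, adjusted p = 0.0402), although both genes varied strongly. Within the families, Spry2 exceeded Spry4 by 1.37 ± 0.24 and Spry1 by 2.19 ± 1.13, Dusp6 exceeded Dusp4 by 2.63 ± 0.46 and Dusp5 by 2.49 ± 0.65, and Etv5 exceeded Etv4 by 2.20 ± 1.01, each in 6 of 6 libraries (log2, SD, n = 6; exact sign-flip permutation, adjusted p = 0.0402 each). Spry4 exceeded Spry1 in 5 of 6 libraries, within the spread (0.82 ± 0.99; exact sign-flip permutation, adjusted p = 0.148).

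The place of Spred2 in this order depended on the length used. Its combined exon length was 33833 bases, against 7087 for Spred1 and 4687 for Spry4, and its longest protein-coding transcript in the GENCODE vM21 basic set had 4449 bases. By combined exon length it lay next to Etv4, within the spread of that gene (log2 difference 0.20 ± 1.15; exact sign-flip permutation, adjusted p = 0.703). Spred2 was last, at 2.17 ± 0.194 CPM per kb of combined exon length, and between Dusp6 and Etv5, at 16.5 ± 1.48 CPM per kb of that transcript (SD, n = 6). With transcript lengths, an alternative chosen once the exon lengths had been seen, Spry2 came first at 37.3 ± 6.91 CPM per kb, followed by Spred1 at 33.9 ± 4.20 and Dusp6 at 30.7 ± 9.22, and the steps between these 3 genes lay within their spread (exact sign-flip permutation, adjusted p = 0.343 and 0.368). With them the step from Spry4 to Dusp5 was 1.00 and passed (log2; exact sign-flip permutation, adjusted p = 0.0414). The order within the Sprouty genes, of Dusp6 over the other phosphatases and of Etv5 over Etv4 was the same with both lengths.

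**Figure D2:**
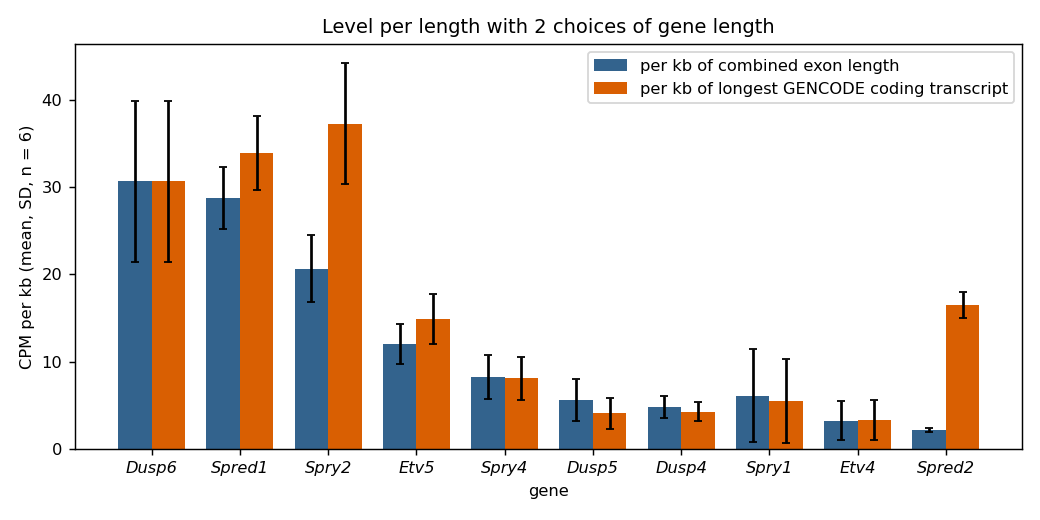
Mean CPM per kb of each feedback gene with 2 choices of gene length; error bars are SD over 6 replicate cultures. Spred2 moves from 2.17 with combined exon length to 16.5 with the longest GENCODE coding transcript.

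Spread between cultures was compared with that of all tested genes. The coefficient of variation of CPM (SD over mean) had a median of 27.7% over the 10 feedback genes and 12.1% over the 14998 tested genes. Spry1, at 87.8%, and Etv4, at 69.3%, were above 99.2% and 97.8% of tested genes, and Dusp5, at 43.7%, above 94.4%. Spry4 and Dusp6 had 30.6% and 30.1%, Dusp4 25.3%, Etv5 19.1%, Spry2 18.5%, Spred1 12.4% and Spred2 8.96%. The highest library was at least 5-fold the lowest for Spry1 and Etv4, as for 3.35% of tested genes, and at least 2-fold for 5 of the 10, adding Spry4, Dusp5 and Dusp6, as for 19.5% of tested genes. Without replicates 1 and 5, 2 of the 10 (Dusp5 and Etv4) differed at least 2-fold, as did 9.03% of tested genes, and the median coefficient of variation was 17.3% over the feedback genes against 9.34% over all tested genes; without replicate 1 alone, 3 of the 10 did, against 15.5%, and without replicate 5 alone, 5 of the 10, against 13.7%.

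**Figure D3:**
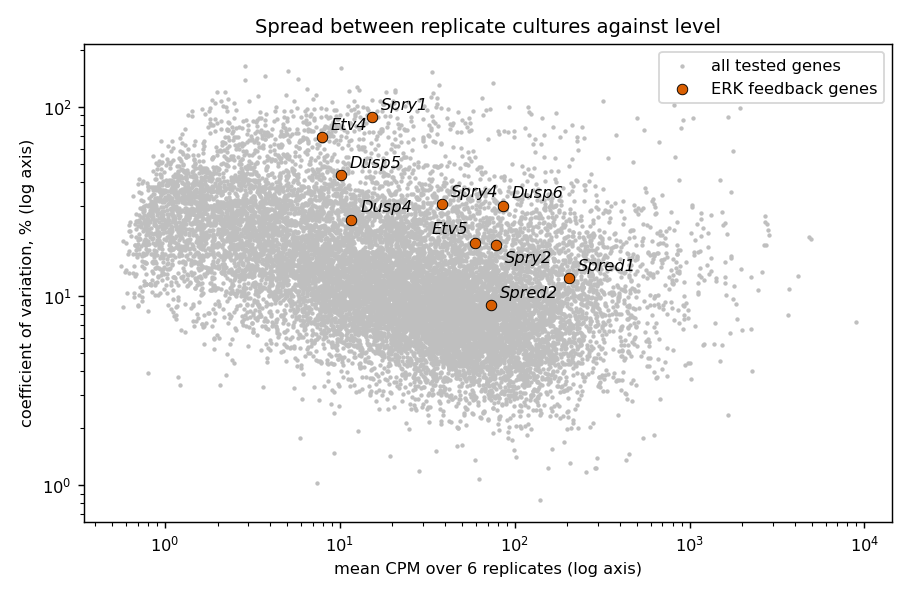
Coefficient of variation over 6 replicate cultures (%, log axis) against mean CPM (log axis) for the tested genes (grey) and the 10 feedback genes (orange). Spry1 and Etv4 lie at 87.8% and 69.3%, Spred2 at 8.96%.

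Counts of each gene were set against those expected from the scaled library sizes in a chi-square test. Adjusted by Benjamini-Hochberg over all 14998 genes, it called all 10 feedback genes as varying beyond counting noise. The background is high: the test called 76.3% of all tested genes, and 82.9% of those with a mean CPM of at least 5, a level that every feedback gene reached. The smallest statistic was that of Spred2 (chi-square test, adjusted p = 1.51e-09) and the largest that of Spry1 (chi-square test, adjusted p = 2.75e-266). In edgeR's quasi-likelihood fit, which sets a gene's spread against genes of similar abundance, none of the 10 and 0% of all tested genes passed an adjusted p of 0.05. Under an unadjusted threshold of 0.05, 809 genes (5.39%) passed in edgeR, a share that the prior, fitted to the same genes, largely sets. Of the feedback genes, 4 did: Spry1, Etv4, Dusp6 and Spry4, with edgeR adjusted p between 0.844 and 0.901.

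Many extremes of the feedback genes fell on replicates 1 and 5, the libraries at the ends of the fibroblast, mural, macrophage and endothelial lists; in the neuron and glial lists replicate 5 was lowest and replicate 1 was at neither end. Of the 10 genes, 5 had their lowest CPM in replicate 1 (Spry1, Spry2, Spry4, Dusp6 and Etv4), against 23.8% of tested genes, and 7 had their highest in replicate 5, against 29.2%. Both held for Spry1, Dusp6 and Etv4, and for 12.9% of tested genes. The fibroblast list showed the same extremes: 8 of its 8 genes were lowest in replicate 1 and 7 highest in replicate 5, and 7 of the 8 had a CPM of at least 1 in all libraries.

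Each feedback gene was set beside the fibroblast and the glial lineage list over the 6 libraries, as log2 of TMM-scaled CPM per kb, which made 20 relations. Spry1 and Etv4 were higher where the fibroblast score was higher, with r = 0.95 each (exact permutation p = 0.00972 and 0.00417, adjusted 0.0486 each) and Spearman's rho = 0.94 each (exact permutation p = 0.0167, adjusted 0.111). Over the 4 libraries left when replicates 1 and 5, whose scores were most extreme, were set aside, r was 0.79 for Spry1 and 0.94 for Etv4. Spred1 had r = 0.91 with the fibroblast score (exact permutation p = 0.0125, adjusted 0.05, rho = 0.83 with exact permutation p = 0.0583, adjusted 0.194), and r = 0.83 without those libraries.

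The glial lineage score was lowest in replicate 5 (6.54), where the fibroblast score was highest (6.60), so relations with the glial and fibroblast lists are not independent. With the glial lineage score, Dusp4 had r = -0.97 and Spred1 r = -0.95 (exact permutation p = 0.00694 and 0.00833, adjusted 0.0486 each). Their rho was -0.94 and -0.83 (exact permutation p = 0.0167 and 0.0583, adjusted 0.111 and 0.194). With replicates 5 and 4 set aside, whose glial scores lay farthest from the median (0.563 and 0.143, against 0.141 for replicate 2), r was -0.64 and -0.61. With the lowest and highest scores set aside instead (replicates 5 and 2, chosen once the scores had been seen), r was -0.91 and -0.84. By r, 4 of the 20 relations passed the adjusted threshold, and by rho 0 did, with 3 at an unadjusted exact permutation p under 0.05. The share of all tested genes related this strongly to either score was not computed, so the calls are not shown to be particular to the feedback genes. The 4 calls also ended when any 1 library was left out, which leaves 5 libraries, although r stayed near its full value: it lay between 0.94 and 0.97 for Etv4, 0.91 and 0.97 for Spry1, -0.99 and -0.90 for Dusp4 and -0.98 and -0.89 for Spred1. Adjusted exact permutation p over those fits lay between 0.0556 and 0.250 for Etv4 and between 0.0625 and 0.250 for Spry1 with the fibroblast score, and between 0.0556 and 0.278 for Dusp4 and 0.0556 and 0.300 for Spred1 with the glial score.

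The other relations did not pass. For Spry2, Spry4 and Dusp6, r with the fibroblast score was 0.70, 0.65 and 0.73 (exact permutation p = 0.139, 0.165 and 0.0931, adjusted 0.231, 0.254 and 0.216), with rho of 0.37, 0.43 and 0.66 (exact permutation p = 0.497, 0.419 and 0.175, adjusted 0.585, 0.524 and 0.350). Without replicates 1 and 5 their r was -0.08, -0.16 and -0.61. Without replicate 1 alone r was 0.26 for Spry2, 0.06 for Spry4 and 0.42 for Dusp6, and without replicate 5 alone it was 0.75, 0.72 and 0.54, so the relations of Spry2 and Spry4 rest on replicate 1 and that of Dusp6 on both libraries. Dusp4, Dusp5, Etv5 and Spred2 had r between 0.47 and 0.80 with the fibroblast score (exact permutation, adjusted p from 0.139 to 0.386). Without replicates 1 and 5 their r was 0.93, 0.87, 0.31 and 0.76. The 8 genes other than Dusp4 and Spred1 had r between -0.83 and -0.23 with the glial score (exact permutation, adjusted p from 0.125 to 0.540). The part of cell composition in the levels was not tested. Within-batch values could not be given, since the labels name no batch.

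**Figure D4:**
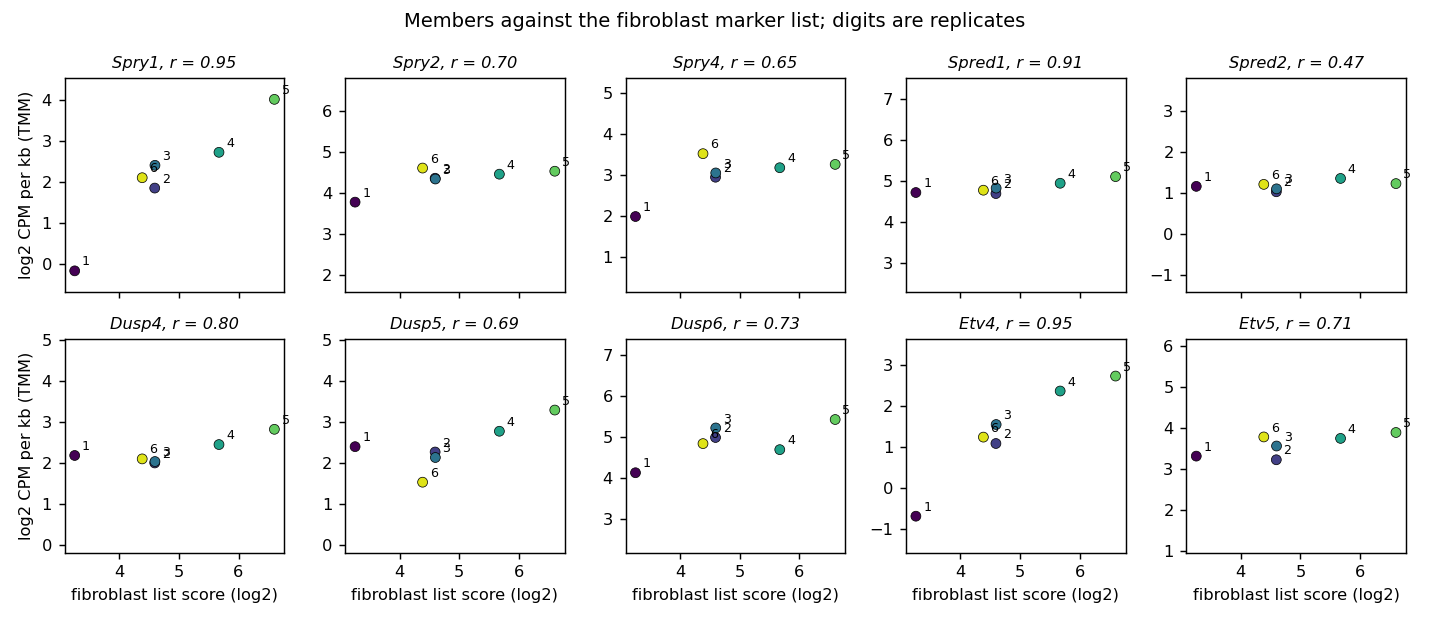
Log2 TMM-scaled CPM per kb of each feedback gene against the fibroblast list score, 1 point per library with its replicate number; all panels span the same log2 range. Spry1 and Etv4 run from replicate 1 at the lower left to replicate 5 at the upper right (r = 0.95 each), while Spred2 stays within a narrow band (r = 0.47).

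The rest of the pathway was taken from lists of 48 genes, chosen with earlier results of these data known. Of these genes 44 were tested, and the chi-square test with Benjamini-Hochberg adjustment called all 44, against 76.3% of all tested genes. The relay from adaptor to kinase was mostly steady. Its 18 genes had a median coefficient of variation of 6.06%, and 0 of them differed 2-fold or more between cultures, against 19.5% of tested genes. The tested genes were not matched to this or the other lists for level, and the relay genes averaged between 38.9 and 460 CPM. Among them were the adaptor genes Frs2 and Grb2 and the Ras exchange factor genes Sos1 and Sos2. Frs2, which links FGF receptors to the pathway, was at 73.8 ± 3.29 CPM and Grb2, which recruits Sos proteins, at 115 ± 6.47 CPM (SD, n = 6). The widest spread in the relay was that of the adaptor gene Shc1, with 85.7 CPM in replicate 1, 159 CPM in replicate 5 and a coefficient of variation of 24.1%. The receptors were less even, with a median of 32.7% over 8 tested genes, 5 of which differed at least 2-fold, against 19.5% of tested genes. The receptor list shares a gene with the fibroblast list and another with the glial lineage list. Fgfr1, an FGF receptor gene, lay between 263 and 323 CPM, whereas Egfr lay between 3.66 CPM in replicate 1 and 66.8 CPM in replicate 5. Not all receptors shared these extremes: 4 of the 8 tested were lowest in replicate 1 and highest in replicate 5, against 12.9% of tested genes.

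Other brakes on the pathway were mostly even. Nf1, which encodes neurofibromin, the partner of Spred proteins, was at 189 ± 14.0 CPM, and Rasa1, another Ras inhibitor gene, at 99.8 ± 7.61 CPM (SD, n = 6). The largest exception was Errfi1, which encodes an inhibitor of the EGF receptor and had 15.1 CPM in replicate 1 against 197 CPM in replicate 5, 13.1-fold. Il17rd, the FGF antagonist Sef, was also less even, between 4.73 and 9.12 CPM (1.93-fold) with a coefficient of variation of 21.4%. Of the family relatives, Spred3 was at 48.7 ± 2.86 CPM, Etv1 at 15.7 ± 2.30 CPM and Dusp1 at 27.4 ± 9.14 CPM (SD, n = 6), while Dusp2 and Dusp9 did not pass the filter on low counts.

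Among 8 further ERK-responsive genes, 4 differed at least 2-fold between cultures, against 19.5% of tested genes. The median coefficient of variation of the 8 was 23.5%, against 12.1% over all tested genes. Egr1, an immediate early transcription factor gene, had 12.8 CPM in replicate 1 against 271 CPM in replicate 5, a 21.2-fold span. In replicate 4, Egr1 was below its values in replicates 2 and 3, at 23.3 CPM, whereas Spry1, at 16.4 CPM, was next to its highest. Ccnd1, the cyclin D1 gene, lay between 666 and 927 CPM and was highest in replicate 6, as were Spry2 and Spry4. Fos, at 157 to 260 CPM, was lowest in replicate 4. The ERK-responsive genes thus did not share 1 order of libraries.

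**Figure D5:**
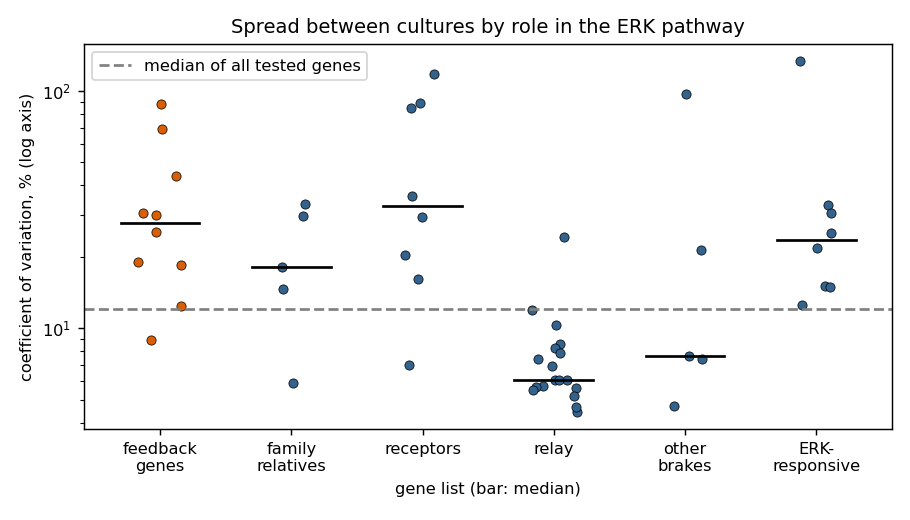
Coefficient of variation over 6 replicate cultures (%, log axis) for the feedback genes (orange) and for other tested genes of the ERK pathway (blue) by role; points are genes, jittered sideways, bars are list medians and the dashed line is the median of all tested genes (12.1%). The relay genes have a median of 6.06% and the feedback genes 27.7%, without matching for level.

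Genes outside the list with the most similar pattern over the 6 libraries were found among 10255 genes with a mean CPM of at least 10, by Pearson's r of log2(TMM-scaled CPM + 0.5). For Dusp6 they were Ttll3, Mrpl38 and Trerf1 (r = 0.99, 0.98 and 0.98), for Spry4 they were Tor3a, Wee1 and Bst2 (r = 0.99 each), and for Etv5 they were Selenos, Wsb2 and Mbnl1 (r = 0.99, 0.99 and 0.98). These are the highest of many values over only 6 libraries that share a scaling, and are given as a description. An r of at least 0.9 was reached by 58 genes for Dusp6, 194 for Spry4 and 118 for Etv5, and by 551 for Spry1 and 477 for Etv4, the members with the widest span.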

How the data were processed

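The authors deposited 1 table of estimated counts per gene, not scaled, with 1 column for each of the 6 libraries and 0 other columns of per-sample values. Combined exon length, in bases, is another deposited column. Per the submitters' processing notes, bcl2fastq 2.20.0.422, cutadapt 2.5, STAR 2.7.2b and featureCounts 1.6.4 (Subread) were used with build GRCm38.p6; strand and multi-mapping settings are not given in the sources used here. Fractional counts occurred in 1 or more libraries for 51.8% of tested genes; counts were rounded for model fits only.

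CPM used library totals. Genes were kept with filterByExpr of edgeR 4.0.16 (R 4.3.3) and scaled by TMM; DESeq2 1.42.0 size factors were an alternative. The chi-square test, the edgeR quasi-likelihood fit with an intercept only (one-sided F test of quasi-dispersion over its prior) and the exact permutation tests were tested on simulated data. List scores were means of log2(CPM per kb + 0.1). Named genes were the 10 members, the genes of the pathway lists that a sentence turns on, and the 3 genes most alike in pattern to Dusp6, Spry4 and Etv5. Pathway genes that are not named count in their lists only, and 1 of them is not reported here. Members and lists were chosen with earlier results of these data known. Alternatives were other scalings, pseudocounts, lengths and filters, and leaving out each library. Intervals of counts were not computed; the spread over 6 libraries is given instead.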

Additional observations from a re-analysis of the deposited data

Results flagged for a closer look

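In 16 measures (the 10 feedback genes and the summed CPM of 6 marker lists), Dixon's ratio (the distance of the outermost library from the next, over the whole range) was set against its critical value for 6 values, 0.625. The ratio was larger in 3 measures, where chance gives about 1 in 20, or 0.8 in 16, for independent and normally distributed measures. The measures here were CPM rather than log2 values, and all 3 ratios were set by replicate 5, so 3 and 0.8 cannot be compared directly. Spry1 had a ratio of 0.626, set by replicate 5 at 40.6 CPM above replicate 4 at 16.4 CPM. The summed glial lineage list had 0.625, just above the critical value, set by replicate 5 at 4414 CPM. The summed endothelial list had 0.751, set by replicate 5 at 102 CPM above replicate 4 at 30.4 CPM. The fibroblast list, at 0.616, and Spry2, at 0.608 (set by the low value of replicate 1), lay just under the critical value.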

How the results depend on the processing

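Of the alternative values for summary results, such as numbers of pairs or genes called, 105 stayed the same or moved by less than the allowed spread, and 16 moved. Of those for single results, such as the level difference of 1 pair, 331 kept their direction and call. A further 91 were weaker, 3 were stronger and 15 reversed direction. Genes of the 10 that differed at least 2-fold between extremes numbered 5 (19.5% of tested genes), and 3 (15.5%) without replicate 1, 5 (13.7%) without replicate 5 and 2 (9.03%) without both, settings added after the data were seen. Means of the 10 genes moved by less than 1 SD under TMM, DESeq2 size factors and each left-out library. Detection was 10 of 10 under each alternative, for which the share of all genes is not given. All 10 genes varied beyond counting noise in each alternative run. Of all tested genes, 11444 of 14998 did so in the main run and 13488 of 26854 without the low-count filter. With a library left out, the number ran from 10098 of 15126 (without replicate 5) to 11253 of 15047 (without replicate 4). In each edgeR fit run, 0 genes varied beyond the trend, in a test that could hardly call any.

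Pairs of genes that differed in level numbered 0 of 45 whenever 1 library was left out, because 5 libraries cannot give an exact p under 0.0625. Relations called by r numbered 4, and 2 with CPM by total counts, 1 with the log2 of summed lists (the cause was not tested) and 0 with any library left out. Directions that reversed all concerned pairs or relations within their spread, or the length used. Without division by length, Dusp6 minus Spred1 was -1.30, Dusp5 minus Dusp4 -0.28 and Etv4 minus Spred2 -3.57 (log2); with the longest GENCODE transcript these were -0.19, -0.13 and -2.64, and Spred1 minus Spry2 was -0.12. Spry4 minus Dusp5, 0.59 and not called, was 1.95 without length (exact sign-flip permutation, adjusted p = 0.0370) and 1.00 with that transcript (adjusted p = 0.0414), and Spry4 minus Spry1, 0.82 and not called, was 1.75 without length (adjusted p = 0.0370). Without the lowest and highest glial scores, r of Dusp6 with that score was 0.099. With a library left out, Dusp4 minus Spry1 ran from -0.35 to 0.36, Dusp6 minus Spred1 from -0.029 to 0.17, Etv4 minus Spred2 from -0.059 to 0.61, and r with the glial score from -0.46 to 0.016 for Spry2 and from -0.58 to 0.27 for Dusp6. Counting error is largest for Spry1 and Etv4, which had 45 and 29 counts in replicate 1.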
